A study of Mus musculus with 6 samples.

Results

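The transcripts of 8 genes had a lower ratio of Cdk6-/- to wild type after polyI:C than without it in hematopoietic stem cells (HSCs) from the bone marrow of mice: Adgra3, Castor1, Slf2, Med14, Ehd3, Atp1b2, Slc38a5 and Fundc1. They were chosen for that difference from 22628 genes measured on 6 Agilent two-colour arrays, and they were found on the arrays by matching the RefSeq accession of every non-control probe to their symbols. The match gave 12 probes, 1 each for 5 genes, 2 for Adgra3, 2 for Slf2 and 3 for Med14, and all 12 passed the filter on dim signal. Since the ratios and the signals behind them chose the genes, their values are given as a description, with no test.

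On each array a Cdk6-/- sample was hybridised in the red channel (Cy5), and wild-type HSCs, sorted, pooled and treated alike, in the green channel (Cy3). The 3 untreated arrays shared 1 untreated wild-type pool, and the 3 polyI:C arrays shared 1 polyI:C-treated pool, so each pool is 1 sample hybridised 3 times and its spread is technical. PolyI:C mimics viral double-stranded RNA and sets off an interferon response; its dose and timing, the age and strain of the mice and the number of mice per sample or pool are not given in the sources used here. CDK6 is a cyclin-dependent kinase of the G1 phase, and the Cdk6-/- genotype was shared by all Cy5 samples of both treatments. No dyes were swapped, so a dye bias of a probe cannot be told from genotype within a treatment, while it cancels in the difference between treatments. The series describes the Cdk6-/- samples as biological replicates; array numbers only name samples. In bulk RNA such as this, fewer cells of a type and less RNA per cell cannot be told apart.

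The genes act at different places in the cell. Med14 is the subunit that joins the modules of Mediator, the complex that links transcription factors to RNA polymerase II, and Slf2 helps bring the SMC5/6 complex to damaged DNA. Castor1 binds arginine and, without it, holds back GATOR2 and thereby mTORC1, the kinase complex that couples growth to nutrients; Slc38a5 is a sodium-coupled transporter of glutamine and other neutral amino acids. Adgra3 is an adhesion G protein-coupled receptor, Ehd3 is an ATPase that shapes membrane tubules in endocytic recycling, and Atp1b2 is a beta subunit of the sodium pump (Na,K-ATPase). Fundc1 sits in the outer mitochondrial membrane and recruits LC3 for mitophagy, the removal of mitochondria by autophagy.

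Promoter sequences were available for 6 of the 8 genes in the RefSeq table used (assembly GRCm38.p6). Each ran from 250 bases before to 50 after the start used in that table. For Med14, Fundc1 and Castor1 this start lay inside the gene's limits given below. Slf2 and Atp1b2 had no sequence there. The promoters of Ehd3, the gene with the highest increase in the wild-type channel, and of Slc38a5, the gene whose signal was lower in both channels, are shown because these genes stood at opposite ends of the channel changes described below. Capitals mark the motif GGGCGG (GC box), and in Slc38a5 also CACGTG (an E box). Ehd3 lies at chr17:73804841-73832093 and its promoter at chr17:73804591-73804890 on the plus strand; Slc38a5 lies at chrX:8271381-8280179 and its promoter at chrX:8271131-8271430 on the plus strand.
Ehd3: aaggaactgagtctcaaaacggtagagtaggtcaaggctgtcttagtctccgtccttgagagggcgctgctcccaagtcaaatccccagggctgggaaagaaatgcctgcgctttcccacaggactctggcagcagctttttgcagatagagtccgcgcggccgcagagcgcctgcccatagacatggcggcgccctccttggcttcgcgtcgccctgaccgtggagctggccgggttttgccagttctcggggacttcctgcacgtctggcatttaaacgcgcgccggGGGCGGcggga
Slc38a5: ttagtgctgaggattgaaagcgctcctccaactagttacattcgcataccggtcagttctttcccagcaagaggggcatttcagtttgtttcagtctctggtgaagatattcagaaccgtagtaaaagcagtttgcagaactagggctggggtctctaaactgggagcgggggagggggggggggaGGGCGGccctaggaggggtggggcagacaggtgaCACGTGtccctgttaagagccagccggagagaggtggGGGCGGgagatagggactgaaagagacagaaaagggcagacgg

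The motifs were searched on both strands of all 32851 promoters of the table, and none of the matches shown overlapped another motif. The letters GGGCGG were present in 5 of the 6 promoters (Adgra3, Castor1, Med14, Ehd3 and Slc38a5) and in 35.7% of all promoters. The letters CACGTG were present in 1 of 6, that of Slc38a5, and in 7.15% of all promoters. The core of an interferon-response element, GAAANNGAA, was in none of the 6 windows, against 8.56% of all promoters, and the STAT motif TTCNNNGAA was in none, against 8.3%. The GATA motif AGATAA (11.2% of all promoters) and the cAMP-response motif TGACG (20.8%) were also in none of the 6. These counts describe letters in short windows and nothing about binding.

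Per array, 59305 spots were read, none was saturated, and 47.0 to 55.7% were well above background in Cy5 and 54.4 to 58.7% in Cy3, except on polyI:C array 3, with 76.5% in Cy5 and 75.6% in Cy3. That array was also alone on its slide. The correlation of ratios across genes between polyI:C arrays ran from 0.132 to 0.56 (untreated arrays: 0.485 to 0.542). The single Cdk6 probe was not well above background in either channel on the untreated arrays. On the polyI:C arrays its log2 ratio was -0.26, -0.44 and -1.28; since its place relative to the deleted part is not known, it does not check the knockout. Xist, the RNA that coats the inactive X chromosome, had ratios (log2) of 1.1, 0.42 and -3.98 on untreated arrays 1 to 3 and of 1.1, 1.87 and -3.42 on polyI:C arrays 1 to 3, so array 3 of each treatment stood apart from arrays 1 and 2. All 18 HSC and progenitor markers measured were well above background in both channels on all 6 arrays, and none passed limma's test for a difference between treatments in the ratio (3 at an unadjusted p under 0.05; median -0.16). In Cy5 their median change was -0.48, with none called and 8 at an unadjusted p under 0.05, and their summed signal ran from 61299 to 90110 untreated and from 44049 to 62570 with polyI:C.

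Across the 8 genes the ratio was lower with polyI:C by a median of 1.5 log2 units (all genes: a difference of 0.04, polyI:C minus untreated). The untreated and polyI:C arrays did not overlap in the ratio of any of the 8, which by itself the choice of genes brings about; of all genes, 8.44% were separated in this direction. In the limma fit over all genes 45 were called lower, 0.199% of those tested, and 361 were called higher, 1.6%. All 8 genes were among the 45 by choice. From the lowest difference upwards in this fit, Adgra3 was at place 1 of all genes, Slf2 5, Med14 20, Ehd3 24, Atp1b2 34, Slc38a5 35, Fundc1 45 and Castor1 74. Just inside the threshold lay Atp1b2, at -1.45 (SE 0.31), and just outside it an unnamed transcript at -1.65 (SE 0.36).

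**Figure D1:**
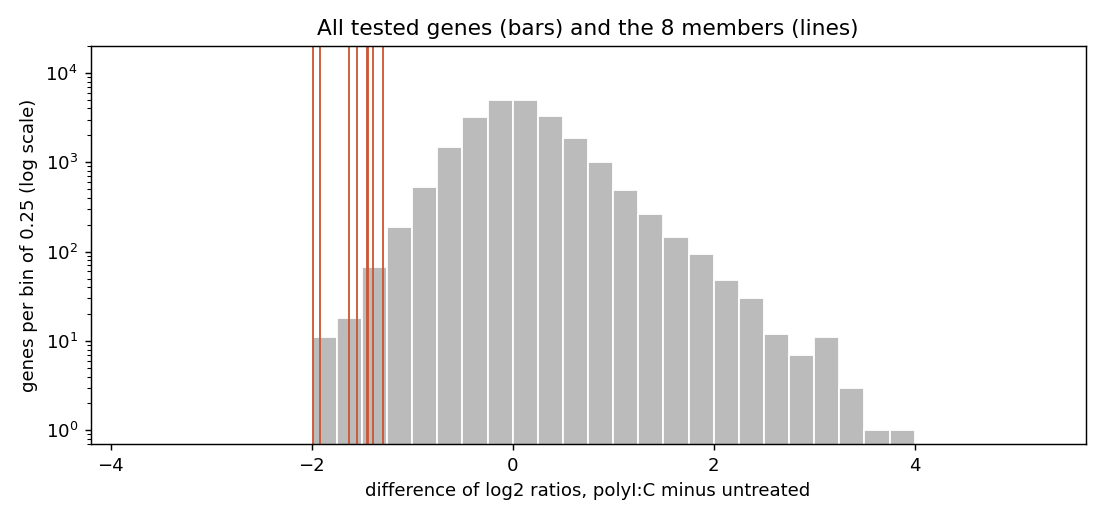
Histogram of the difference of log2 ratios (polyI:C minus untreated, x axis, log2 units) over 22628 genes, with the number of genes per bin of 0.25 on a log y axis; red lines mark the 8 genes. The lines lie between -1.99 (Adgra3) and -1.29 (Castor1), in the lower tail from which they were chosen.

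The difference was reached in more than one way. The Cy3 signal, that of the wild-type pool, was higher with polyI:C in 7 of the 8 genes (median change 1.1 log2 units; all genes 0.00), and in 6 of them every polyI:C array lay above every untreated array, as it did in 19.2% of all genes. The Cy5 signal, that of the Cdk6-/- samples, was lower with polyI:C in 6 genes (median change -0.56; all genes 0.03). Only Slc38a5 had every untreated array above every polyI:C array in Cy5, a separation found in 7.67% of all genes. The larger of the 2 changes was in Cy3 for Adgra3, Castor1, Slf2, Med14, Ehd3 and Atp1b2, and in Cy5 for Slc38a5 and Fundc1. None of the 8 was among the genes called for a change in Cy5 over all genes, where 24 were called higher (0.106%) and 13 lower (0.0575%); the Cy3 changes have no test because each pool is 1 sample. In Cy5, 2326 genes had an unadjusted p under 0.05, and no gene was called by limma when polyI:C array 1 or any 1 untreated array was left out (1669 to 2146 at an unadjusted p under 0.05).

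**Figure D2:**
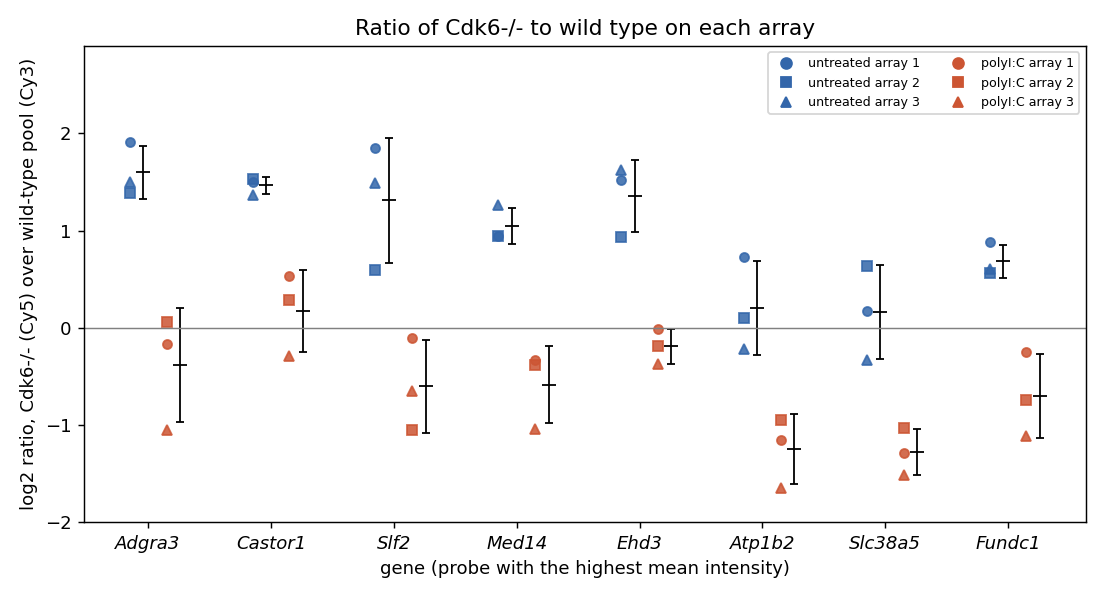
Log2 ratio of Cdk6-/- (Cy5) to the wild-type pool (Cy3) on each array, for the probe of each gene with the highest mean intensity; points are arrays, bars the mean and SD of 3 arrays. In each gene the 3 untreated arrays lie above the 3 polyI:C arrays, and after loess Slf2, Med14, Ehd3 and Fundc1 cross from above 0 to below 0 (with median centring Slf2 and Ehd3 do not).

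Of the nuclear genes, Med14 (chrX:12675368-12762594) had log2 ratios of 0.94, 0.94 and 1.26 on untreated arrays 1 to 3, against -0.33, -0.38 and -1.04 on polyI:C arrays 1 to 3. All untreated arrays were above 0 and all polyI:C arrays below it, with means of 1.05 ± 0.18 and -0.58 ± 0.40 (SD, n = 3 each) and a difference of -1.63 (SE 0.27). The wild-type signal of this probe was 8.51, 8.76 and 8.73 log2 units untreated and 10.11, 10.12 and 9.14 with polyI:C, so the groups were apart in Cy3 with a change of 1.13. In Cdk6-/- samples the signal was 9.45, 9.70 and 9.99 untreated and 9.78, 9.74 and 8.10 with polyI:C. In Cy5 only polyI:C array 3 lay below the untreated range, and the mean change of -0.50 (SE 0.48) became 0.05 without that array.

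Slf2 (chr19:44918506-44983786) had log2 ratios of 1.85, 0.60 and 1.49 untreated and -0.10, -1.05 and -0.65 with polyI:C. The means were 1.31 ± 0.64 and -0.60 ± 0.48 (SD, n = 3 each), the difference -1.91 (SE 0.37). Here untreated array 2 was the lowest of its group and the spread among untreated arrays the widest of the 8 genes. In Cy3 the signal was 7.12, 7.49 and 7.20 untreated, well above background only on array 2, and 8.99, 8.94 and 7.80 with polyI:C. In Cy5 it was 8.97, 8.09 and 8.69 untreated and 8.89, 7.89 and 7.15 with polyI:C, which overlap. The change was thus 1.30 in the wild-type channel and -0.61 (SE 0.47) in the Cdk6-/- channel.

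No partner of these proteins on the lists passed the test. Of 31 other Mediator genes measured (32 on the list), none passed limma's test for the difference of ratios in either direction (5 at an unadjusted p under 0.05), and their median difference was -0.05. Med1, the subunit that meets nuclear receptors, was at -0.52 (SE 0.23, limma adjusted p = 0.293), and Med16 of the tail module at -0.29 (SE 0.32, limma adjusted p = 0.716). Of 8 genes of the SMC5/6 complex and its partners (9 on the list) none passed either (0 at an unadjusted p under 0.05), with a median of 0.02. Rad18, the ubiquitin ligase upstream of Slf1 and Slf2, was at 0.39 (SE 0.35), and Nsmce1, a subunit of SMC5/6, at 0.00 (SE 0.31). Slf1, the binding partner of Slf2, named after its values were seen, was at -0.46 (SE 0.26, limma adjusted p = 0.422).

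In nutrient sensing, Castor1 (chr11:4218166-4222409) had the tightest untreated ratios of the 8 genes after loess, at 1.5, 1.53 and 1.37. With polyI:C its ratios were 0.53, 0.29 and -0.29. The means were 1.47 ± 0.08 and 0.18 ± 0.42 (SD, n = 3 each), and the difference was -1.29 (SE 0.27). After loess it was the only gene of the 8 with a mean ratio above 0 with polyI:C. The wild-type signal was 6.73, 6.77 and 6.57 untreated, not well above background on any of the 3 arrays, and 7.44, 7.99 and 7.50 with polyI:C. It was therefore at least 1.69-fold higher with polyI:C, counted from the lowest signals well above background on the untreated arrays or the probe's own where higher. The Cdk6-/- signal was 8.23, 8.30 and 7.94 untreated and 7.98, 8.29 and 7.21 with polyI:C, a change of -0.33 (SE 0.37) within overlapping groups. The untreated ratios of Castor1 accordingly rest on a dim denominator. With the scanner's own processed signals they were 3.76, 3.79 and 3.13, a wider spread than after loess, and the difference was -3.20.

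Slc38a5 was the exception in channel. Its log2 ratios were 0.17, 0.64 and -0.33 untreated and -1.29, -1.03 and -1.51 with polyI:C (means 0.16 ± 0.49 and -1.28 ± 0.24, SD, n = 3 each; difference -1.44, SE 0.30). After loess the untreated arrays thus lay on either side of 0 (all above it with median centring), and the polyI:C arrays all lay below -1 (above it on array 2 with median centring). In Cy5, the Cdk6-/- samples, it was 10.85, 11.55 and 10.36 untreated and 8.73, 9.23 and 8.79 with polyI:C, 4.0-fold lower (change -2.0, SE 0.38). The wild-type signal was 10.68, 10.90 and 10.70 untreated and 10.03, 10.26 and 10.30 with polyI:C, a change of -0.56. The transporter's signal was therefore lower with polyI:C in both genotypes, by more in Cdk6-/- cells, with no overlap between treatments in either channel. Without polyI:C array 3 the changes were -1.94 in Cy5 and -0.61 in Cy3.

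Erythroid markers had median changes below 0 in both channels, as Slc38a5 had. Of 22 measured (23 on the list), 3 were called lower in Cy5 with polyI:C and none higher, with a median change of -1.24 in Cy5 and -0.53 in Cy3. Among them, and named after their values were seen, were Slc4a1, the anion exchanger of red cells (-3.75, SE 0.47, limma adjusted p = 0.0258), and Trim10 (-3.04, SE 0.41, limma adjusted p = 0.0335). Other markers of the list, also named after their values were seen, went the other way. Gata1 changed by 1.36 in Cy5 and 1.08 in Cy3 and Car1 by 0.42 and 1.18, and Epor and Sptb were above 0 in both channels too. The summed signal of the list in Cy5 ran from 385261 to 420009 untreated and from 151842 to 284717 with polyI:C, and in Cy3 from 280539 to 314681 and from 200744 to 336972. In the ratio none of the 22 passed in limma (5 at an unadjusted p under 0.05; median difference -0.56); Hemgn was at -0.73 (SE 0.28, limma adjusted p = 0.218) and the alpha globin Hba-a2 at -1.71 (SE 0.80, limma adjusted p = 0.323). On all 6 arrays 16 of the 22 were well above background in Cy5 and 20 in Cy3. The part of erythroid RNA in the Slc38a5 values was not tested.

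Among other genes of nutrient handling was a list of 38 genes of amino acid sensing, mTORC1 and its regulators. Of the 36 measured, 1 passed the test, in the direction opposite to Castor1. This was Lamtor4, a subunit of the Ragulator scaffold on the lysosome, with ratios of -1.26, -1.5 and -1.14 untreated and 0.20, -0.01 and 0.04 with polyI:C. Its difference was 1.38 (SE 0.24, limma adjusted p = 0.0217); the call was lost on leaving out any array but untreated array 2 (limma adjusted p = 0.0586 to 0.0849). The list's median difference was 0.07. Castor2, the paralog of Castor1, named after its values were seen, was at -0.46 (SE 0.30, limma adjusted p = 0.492). Of 21 other amino acid transporters measured (33 on the list) none passed in limma (4 at an unadjusted p under 0.05), with a median of -0.15. Slc3a2, the heavy chain shared by several exchangers, was at -0.54 (SE 0.25, limma adjusted p = 0.32) and the neutral amino acid transporter Slc1a4 at -0.62 (SE 0.38, limma adjusted p = 0.469). Of the same family as Slc38a5, and named after their values were seen, Slc38a1 was at -0.74 (SE 0.25, limma adjusted p = 0.171) and Slc38a2 at 0.23 (SE 0.26, limma adjusted p = 0.728).

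**Figure D3:**
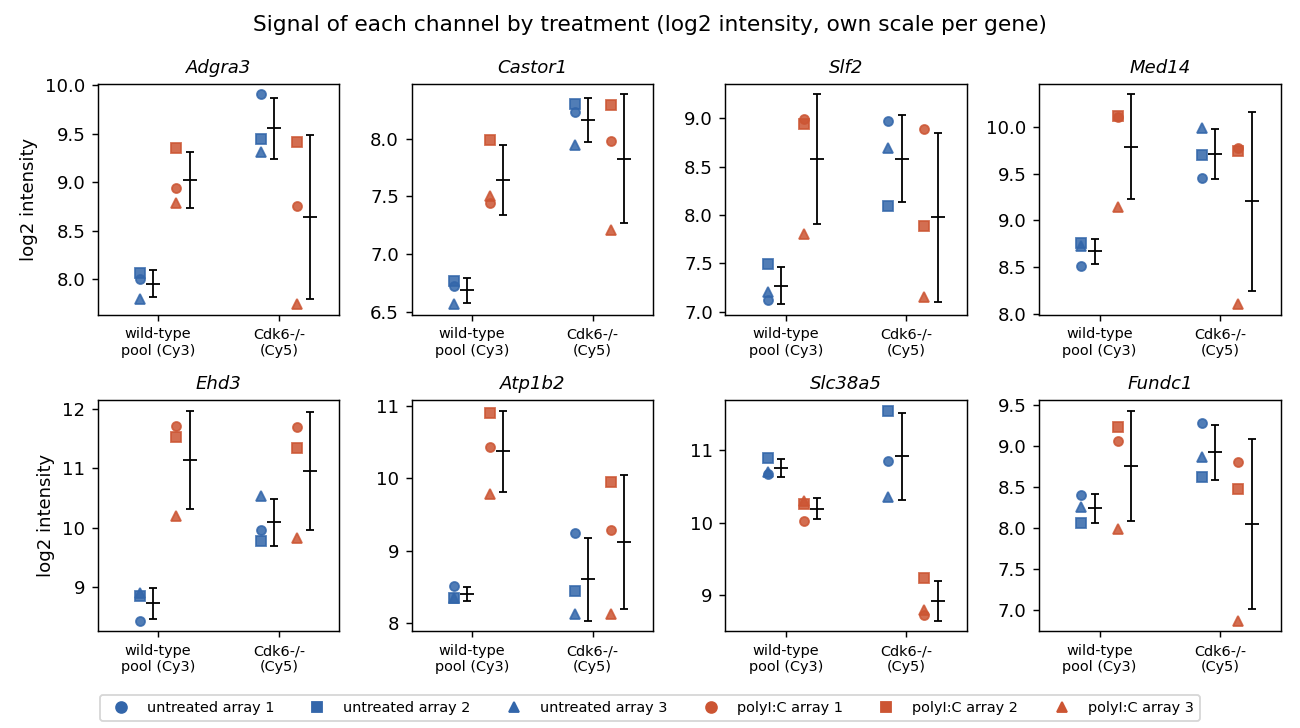
Log2 intensity of each gene's probe in the wild-type pool (Cy3) and the Cdk6-/- samples (Cy5), untreated and with polyI:C, each panel on its own scale; points are arrays, bars the mean and SD of 3 arrays. In the wild-type channel the polyI:C points lie above the untreated points for Adgra3, Castor1, Slf2, Med14, Ehd3 and Atp1b2, while for Slc38a5 they lie below them in both channels.

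At the cell surface, Adgra3 (chr5:49959951-50058996) had the lowest difference of all genes after loess with the brightest probe of each. With processed signals Castor1 (-3.20) and Slf2 (-2.94) were lower than Adgra3 (-2.57), and with probes averaged Adgra3 was at -0.85. Its log2 ratios were 1.91, 1.39 and 1.5 untreated and -0.17, 0.06 and -1.05 with polyI:C (means 1.60 ± 0.28 and -0.39 ± 0.58, SD, n = 3 each; difference -1.99, SE 0.32). The ratio of this probe was thus above 0 on all untreated arrays, whereas with polyI:C arrays 1 and 2 were near 0 and array 3 was below it; the other Adgra3 probe, given below, was below 0 on all untreated arrays. The wild-type signal was 8.00, 8.06 and 7.80 untreated and 8.94, 9.35 and 8.79 with polyI:C, a change of 1.07 with no overlap. The Cdk6-/- signal was 9.91, 9.45 and 9.31 untreated and 8.76, 9.42 and 7.74 with polyI:C, a change of -0.92 (SE 0.45) with overlap through array 2. Without polyI:C array 3 the change in Cy5 was -0.47 and that in Cy3 1.19.

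Of 16 other adhesion G protein-coupled receptors measured (28 on the list), 1 passed in the ratio, in the opposite direction, and the median difference was 0.22. Adgre5 (CD97), a receptor of leukocytes, had ratios of -0.46, -0.57 and -0.75 untreated and 0.61, 0.50 and 1.34 with polyI:C, a difference of 1.41 (SE 0.28, limma adjusted p = 0.0389). Its Cy3 signal changed by -1.99 and its Cy5 signal by -0.58. The call was lost on leaving out any 1 array (limma adjusted p = 0.0676 to 0.12) and with median centring (limma adjusted p = 0.094).

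Ehd3 (chr17:73804841-73832093) had the largest change in the wild-type channel of the 8 genes. Its log2 ratios were 1.52, 0.93 and 1.62 untreated and -0.01, -0.19 and -0.37 with polyI:C (means 1.36 ± 0.38 and -0.19 ± 0.18, SD, n = 3 each; difference -1.55, SE 0.27). The wild-type signal was 8.44, 8.85 and 8.91 untreated and 11.70, 11.53 and 10.20 with polyI:C, 5.31-fold higher (change 2.41). The Cdk6-/- signal was 9.97, 9.78 and 10.53 untreated and 11.69, 11.34 and 9.83 with polyI:C. It was higher on polyI:C arrays 1 and 2 and within the untreated range on array 3, with a mean change of 0.86 (SE 0.50), or 1.42 without array 3. The mean Ehd3 signal was therefore higher with polyI:C in both channels, by more in the wild-type pool, with overlap between treatments in Cy5. The promoter printed above holds no match to the interferon or STAT motif searched, which were in 8.56% and 8.3% of all promoters. The part of interferon in the Ehd3 values was not tested.

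Atp1b2 (chr11:69599728-69605978) resembled Ehd3 in its channels and Slc38a5 in its ratios. The log2 ratios were 0.73, 0.10 and -0.22 untreated and -1.15, -0.95 and -1.65 with polyI:C (means 0.20 ± 0.48 and -1.25 ± 0.36, SD, n = 3 each; difference -1.45, SE 0.31). The untreated arrays were on either side of 0 (all above it with median centring), and all polyI:C arrays were below it. The wild-type signal was 8.51, 8.35 and 8.35 untreated and 10.43, 10.90 and 9.78 with polyI:C, 3.91-fold higher (change 1.97). Cy5 signal in Cdk6-/- samples was 9.24, 8.44 and 8.13 untreated and 9.28, 9.95 and 8.13 with polyI:C, a change of 0.51 (SE 0.51) with overlap, or 1.01 without polyI:C array 3.

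Of 26 other genes of endocytic recycling measured (27 on the list), none passed limma's test in the ratio (9 at an unadjusted p under 0.05), and the median difference was -0.03. Rab10, a GTPase of recycling endosomes, was at -0.63 (SE 0.28, limma adjusted p = 0.292) and Arf6, a GTPase of the plasma membrane, at -0.09 (SE 0.24). The paralogs Ehd1 and Ehd4, named after their values were seen, were at 0.59 (SE 0.26, limma adjusted p = 0.291) and -0.13 (SE 0.28). Of 9 other subunits and FXYD regulators of the sodium pump measured (14 on the list), none passed in limma (3 at an unadjusted p under 0.05), with a median of 0.32. The regulator Fxyd5 was at 0.57 (SE 0.24, limma adjusted p = 0.277). Among the beta subunits, named after their values were seen, Atp1b1 was at 1.22 (SE 0.27, limma adjusted p = 0.0569), opposite in sign to Atp1b2, and Atp1b3 was at -0.04 (SE 0.24).

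At the mitochondrion, Fundc1 (chrX:17519967-17572329) had log2 ratios of 0.88, 0.56 and 0.61 untreated and -0.25, -0.74 and -1.11 with polyI:C. The means were 0.68 ± 0.17 and -0.70 ± 0.43 (SD, n = 3 each) and the difference -1.39 (SE 0.28). Every untreated array was above 0 and every polyI:C array below it, and after loess the 2 means were about equally far from 0. With median centring the ratios were 1.18, 0.82 and 0.90 untreated and -0.13, -0.57 and -0.99 with polyI:C. The wild-type signal was 8.41, 8.06 and 8.26 untreated and 9.06, 9.23 and 7.99 with polyI:C, a change of 0.52 in which array 3 overlaps with the untreated arrays. The Cdk6-/- signal was 9.28, 8.62 and 8.87 untreated and 8.81, 8.48 and 6.87 with polyI:C, a change of -0.87 (SE 0.51). Which channel carried the larger part depended on polyI:C array 3: without it the changes were 0.90 in Cy3 and -0.28 in Cy5. Of 32 other mitophagy genes measured (33 on the list) none passed limma's test in the ratio (1 at an unadjusted p under 0.05; median difference 0.08). Over the 8 lists of related genes, 0 of 179 list entries passed limma's test in Cy5, and 26 had an unadjusted p under 0.05. Phb2, an inner-membrane receptor of mitophagy, was at 0.24 (SE 0.26) and Gabarapl1, an LC3-like protein, at -0.39 (SE 0.23, limma adjusted p = 0.436); Fundc2, the paralog, named after its values were seen, was at -0.47 (SE 0.27, limma adjusted p = 0.419).

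**Figure D4:**
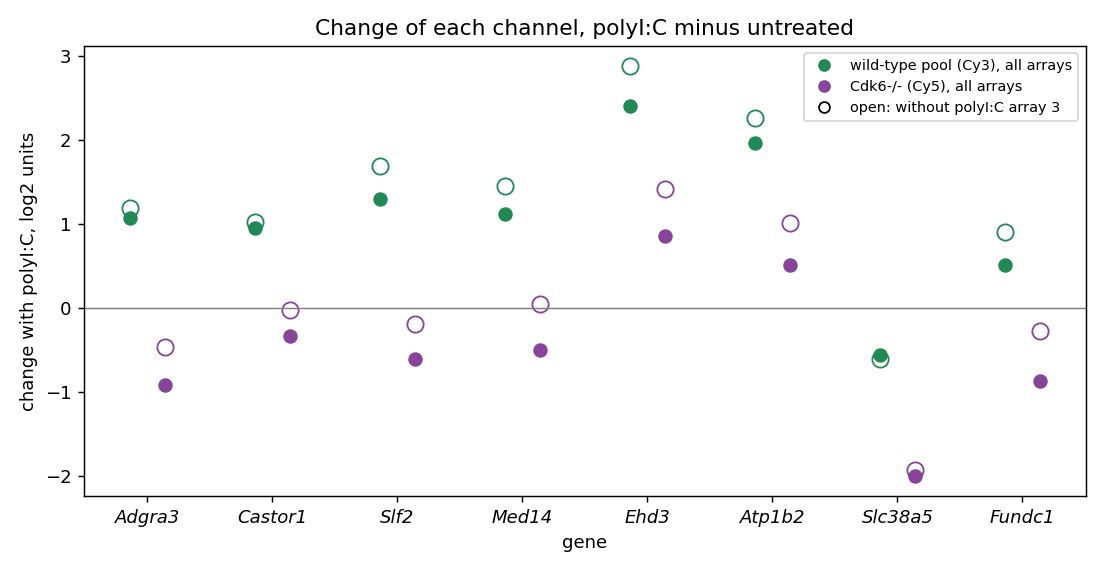
Change with polyI:C (polyI:C minus untreated means, log2 units) in the wild-type pool (Cy3, green) and in Cdk6-/- samples (Cy5, purple) for each gene; filled circles use all arrays, open circles leave out polyI:C array 3. The green circle lies above the purple one for every gene, which the choice of genes brings about. Leaving out array 3 moves the purple circles of Adgra3, Castor1, Slf2, Med14 and Fundc1 to between -0.47 and 0.05.

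The Cy5 changes below 0 were larger in size with polyI:C array 3 than without it. Without it, the Cy5 changes of Adgra3, Castor1, Slf2, Med14 and Fundc1 ran from -0.47 to 0.05 and their Cy3 changes from 0.90 to 1.69; over all 8 genes the medians were -0.11 in Cy5 and 1.32 in Cy3, and the larger change was in Cy3 for 7 genes. Since no arrays overlapped in the ratios that chose the genes, the difference within a slide could only be below 0; its size is given as a description. On slide 1 (untreated arrays 1 and 3, polyI:C array 1) the differences of the 8 genes ran from -1.88 (Adgra3) to -0.90 (Castor1), with a median of -1.42, and on slide 2 (untreated array 2, polyI:C array 2) from -1.68 (Slc38a5) to -1.04 (Atp1b2), with a median of -1.31. The calls were less steady than the values, and they are no test of the 8 genes, which this difference chose. Without untreated array 1, untreated array 3, polyI:C array 1 or polyI:C array 3 none of the 8 passed the threshold. Of all 22628 genes, 177, 67, 100 and 6 passed in these fits. Without polyI:C array 2, 1 of the 8 passed (86 of all genes), and without untreated array 2, 4 passed (378 of all genes). With slide as a block limma called 0 of all genes (4440 at an unadjusted p under 0.05, against 3739 without the block). The p-values measure only the spread between these samples. Since each wild-type pool is 1 sample, those for the ratio leave out any spread between pools.

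On the X chromosome lay 3 of the 8 genes, Med14, Slc38a5 and Fundc1, and Xist set array 3 of each treatment apart. The Y-linked genes measured (3 of 4 on the list) had a median difference of ratios of -1.54 and median changes of -1.44 in Cy5 and -0.23 in Cy3. Their summed Cy5 signal ran from 3018 to 3571 untreated and from 784 to 1930 with polyI:C; none passed limma's test in the ratio (2 at an unadjusted p under 0.05) or in Cy5 (3 at an unadjusted p under 0.05). Sex is not stated in the labels, and the part of a difference in sex in the values of the 8 genes was not tested. On arrays 1 and 2 alone, a setting chosen after seeing the data, the differences were -1.29 for Med14, -1.57 for Slc38a5 and -1.22 for Fundc1, and the median of all 8 was -1.40. Of the 440 other X-linked genes tested, 8 were called higher and 1 lower in the difference of ratios, and their median was 0.01. The gene called lower, named after its values were seen, was Amot, a scaffold of the Hippo pathway, at -1.36 (SE 0.29, limma adjusted p = 0.0475).

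Adgra3, Slf2 and Med14 had further probes, and these did not show a difference of the same size. The other Adgra3 probe (A_51_P462102), well above background on all arrays in both channels, had ratios of -0.39, -0.46 and -0.40 untreated and 0.31, -0.01 and -0.66 with polyI:C, a difference of 0.30. On untreated arrays the 2 Adgra3 probes therefore lay on opposite sides of 0. The other Slf2 probe (A_52_P465714) had a difference of -0.42 and overlapping groups, with signal well above background on 2 of 3 untreated arrays in each channel. For Med14, probe A_52_P406371 was at -0.39, also with overlap. Probe A_55_P2163837 was at 0.77, from a Cdk6-/- signal that was not well above background on any untreated array and was at least 2.04-fold higher with polyI:C. With a gene's tested probes averaged, the differences were -0.85 for Adgra3, -1.17 for Slf2 and -0.42 for Med14. Where each probe lies in its transcript was not analysed here, so the results for these 3 genes hold for the brightest probe of each.

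**Figure D5:**
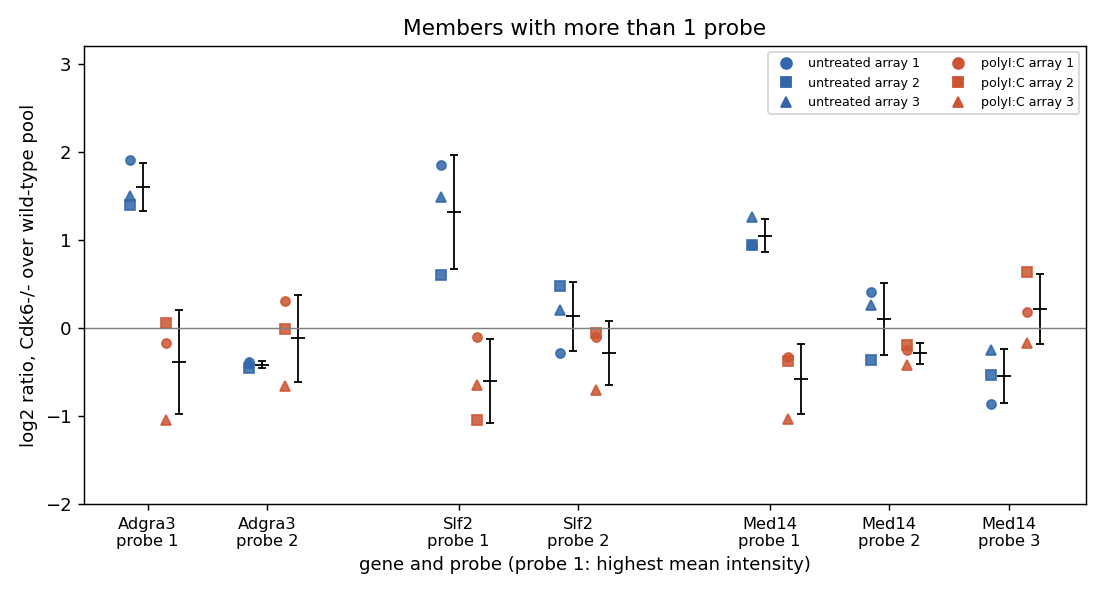
Log2 ratio of Cdk6-/- to the wild-type pool on each array for the probes of Adgra3, Slf2 and Med14, probe 1 being the one with the highest mean intensity; points are arrays, bars the mean and SD of 3 arrays. Probe 1 of each gene separates the treatments, and the other probes overlap or, for Med14 probe 3, lie the other way round.

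The signs of the ratios depended in part on scaling. After loess, 6 of the 8 genes were above 0 on all untreated arrays, 6 were below 0 on all polyI:C arrays, and 4 (Slf2, Med14, Ehd3 and Fundc1) were both. With each array centred on its median in place of loess, which put the median ratio of all genes at 0.30 untreated and 0.21 with polyI:C (loess: -0.05 and -0.02), the counts were 8, 4 and 4, and the 4 were Med14, Atp1b2, Slc38a5 and Fundc1. Ehd3 then lay above 0 on polyI:C arrays 1 and 2 (0.49 and 0.31) and Slf2 on polyI:C array 1 (0.02). With the processed signals the counts were 6, 5 and 3 (Slf2, Med14 and Fundc1), and Ehd3 lay at 0.05 on polyI:C array 1. With the brightest probe of each gene, Med14 and Fundc1 were thus the genes that crossed 0 in all 3 scalings. The further Med14 probes, given above, did not cross in this way. In all 3 scalings the untreated and polyI:C arrays of all 8 genes did not overlap, which their choice brings with it. Of all genes, 8.44% were separated in this direction after loess, 9.42% with median centring and 10.7% with processed signals.

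The mean log2 ratio of the 8 genes was 1.19, 0.84 and 0.91 on untreated arrays 1 to 3 and -0.35, -0.50 and -0.96 on polyI:C arrays 1 to 3. Each gene followed this profile with a Pearson r of 0.904 (Slc38a5) to 0.988 (Adgra3) over the 6 arrays, which the shared choice of genes brings with it. Of the other genes with a symbol, the 5 most like this profile were Fgd1 (r = 0.994), Cdc42bpa (0.992), Slc25a30 (0.988), Cdt1 (0.986) and Tsr1 (0.985), again over 6 arrays that fall into 2 groups. Fgd1 is an exchange factor of the GTPase Cdc42 and Cdc42bpa a kinase bound by it; Cdt1 licenses origins of DNA replication. The closest in size was Slc25a30, a mitochondrial carrier, with ratios of 1.04, 0.85 and 0.65 untreated and -0.36, -0.27 and -0.95 with polyI:C (difference -1.37), against -0.91 for Fgd1, -0.70 for Cdc42bpa, -0.66 for Cdt1 and -0.95 for Tsr1.

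Values of other gene groups are given beside those of the 8 genes. Of 31 interferon-response genes measured (34 on the list), 4 were called lower and none higher in the difference of ratios, with medians of -0.48 for the difference, 1.28 for the Cy5 change and 1.89 for the Cy3 change. Herc6, an interferon-induced ligase of ISG15, was at -1.86 (SE 0.28, limma adjusted p = 0.0172), and Iigp1, an immunity-related GTPase, at -1.32 (SE 0.25, limma adjusted p = 0.032). The RNA sensor Ifih1 (MDA5) was at -1.26 (SE 0.25, limma adjusted p = 0.0388) and the kinase Eif2ak2 (PKR) at -1.13 (SE 0.24, limma adjusted p = 0.0454). All 4 calls were lost without untreated array 3 or any 1 polyI:C array, with differences of -1.94 to -1.02 and limma adjusted p of 0.0557 to 0.169; those of Ifih1 and Eif2ak2 were also lost without untreated array 1 or 2, and that of Iigp1 without untreated array 1. For these 4 the mean change was above 0 in both channels and larger in the wild-type channel (Cy3 1.73 to 2.13, Cy5 0.23 to 0.87). The mean changes of Ehd3 and Atp1b2 were also above 0 in both channels and larger in Cy3. A Cy3 change above the Cy5 change comes with any lower ratio, for which all these genes were picked. In Cy5, however, the treatments of Ehd3 and Atp1b2 overlapped, and the change of Atp1b2 was 0.51 (SE 0.51). In Cy5, 2 of the 31 were called higher: Irf7 (3.46, SE 0.32, limma adjusted p = 0.0108) and Usp18 (2.74, SE 0.31, limma adjusted p = 0.0186), named after their values were seen.

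Markers of granulocytes, monocytes, B cells and stroma had median Cy3 changes below 0. Granulocyte markers had a median Cy3 change of -2.03 and a Cy5 change of -0.35, with 7 of 16 called higher in the ratio and none lower; their summed Cy3 signal ran from 460968 to 625361 untreated and from 131929 to 177098 with polyI:C. For 12 monocyte and macrophage markers the Cy3 median was -1.77 (2 called higher; summed Cy3 signal 39298 to 42738 and 15015 to 17489), and for 11 B cell markers -2.77 (2 called higher; 44969 to 46272 and 14535 to 26601). The 13 endothelial and stromal markers had a Cy3 median of -2.03 (2 called higher; 27627 to 28678 and 9873 to 10960). Megakaryocyte markers had medians above 0 in both channels (17 measured, Cy5 median 1.03, Cy3 median 0.64; 2 called higher in the ratio and 2 in Cy5), and so had those of T and NK cells (14 measured, 1.11 and 0.64; none called in the ratio, 1 at an unadjusted p under 0.05; 1 called higher in Cy5). Of 7 mast cell and basophil markers limma called none (6 at an unadjusted p under 0.05; median difference 1.14). In 7 of the 8 genes the Cy3 signal ran opposite to these myeloid, B cell and stromal markers (median Cy3 change of all genes -0.002). The choice of the 8 genes by a lower ratio favours a higher Cy3 signal. The part of the makeup of the pools in the values of the 8 genes was not tested.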

How the data were processed

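RNA was amplified with TransPlex WTA2 and labelled with platinum dyes, per the labels' protocols. Agilent Feature Extraction 11.5.1.1 made the scanner files, per the file headers. As deposited they hold median spot and background intensity, processed signals (intensity), a log10 ratio of red to green, and spot flags (other). The deposited value table is in log2 and equals log2 of Cy5 over Cy3 processed signal within 2.52e-06. Median signals were corrected with normexp (offset 50) and normalized by loess within arrays in limma 3.58.1 (R 4.3.3); control spots and outlying or non-uniform spots (0.657%) were dropped, then spots were averaged per probe. A probe was tested if either channel was well above background on all 3 arrays of a group and if it was measured on at least 2 arrays of each (31802 of 55681 probes), and a gene took its probe with the highest mean intensity (5701 genes had several), which left 22628 genes. Symbols came from RefSeq on GRCm38.p6 (22015 of 22323 accessions matched). Channel levels are log2 intensities after loess and limma's Aquantile scaling between arrays.

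The difference of ratios and the Cy5 change were fitted with limma (lmFit, eBayes; 1 mean per treatment, 4 residual degrees of freedom) and adjusted by Benjamini and Hochberg over all genes, with a threshold of 0.05; the fit was tested on simulated data. With 3 arrays against 3 the smallest exact permutation p is 0.1, and the number of arrays limits the precision. The 8 genes, the gene lists and the tests were chosen with earlier results of these data known. Genes of a list are named if called in the difference of ratios (at most 4, by size), otherwise the 2 of highest mean intensity; some genes that this rule names are not reported here. The alternatives were median centring, processed signals, no filter, the mean of a gene's probes, slide as a block, values within a slide and leaving out each array; arrays 1 and 2 of each treatment alone were added after seeing the data.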

Additional observations from a re-analysis of the deposited data

Results flagged for a closer look

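After loess, the ratios of 4 genes lay above 0 on every untreated array and below 0 on every polyI:C array, a difference between treatments that was not tested because the genes were chosen for it: Slf2 (-1.91), Med14 (-1.63), Ehd3 (-1.55) and Fundc1 (-1.39, as log2 differences of the ratio, polyI:C minus untreated). With median centring Ehd3 and Slf2 lay above 0 on some polyI:C arrays, and with processed signals Ehd3 did on polyI:C array 1 (0.05). These values hold for the brightest probe of each gene. The further probes of Slf2 and Med14 did not cross 0 in this way.

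Several genes of the lists had a difference of ratios between treatments that passed limma's test. Of those related to the 8 genes, Adgre5 was at 1.41 and Lamtor4 at 1.38. Interferon-response genes were lower: Herc6 at -1.86, Iigp1 at -1.32, Ifih1 at -1.26 and Eif2ak2 at -1.13. Of the markers of other cell types, the granulocyte genes Fcnb (2.41), Retnlg (2.27), S100a8 (2.21) and Mmp8 (2.16), the macrophage genes Marco (3.14) and Lyz2 (2.18), the B cell gene Cd79b (1.65) and the platelet genes Ppbp (2.06) and Itgb3 (1.62) were higher. The stromal genes Dcn (2.22) and Lepr (2.31) were higher as well, but Lepr was not well above background in Cy5 on any array, so its value carries only a bound on the Cdk6-/- side.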

How the results depend on the processing

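The difference of the 8 genes stayed below 0 under each alternative run, which for subsets of the arrays their choice fixed beforehand. Its median (-1.5) was -1.98 with processed signals and -1.62 to -1.36 with each array left out in turn; the cause was not tested. Counts of called genes moved more. For the difference of ratios (406 called) the count was 241 with median centring, 186 with processed signals, 253 without the filter, 537 with the mean of a gene's tested probes, 0 with slide as a block, 0 on arrays 1 and 2 alone (4553 at an unadjusted p under 0.05; fewer samples) and 6 to 378 with each array left out in turn; of the 8 genes, 6 were called with median centring and 3 with processed signals. For the Cy5 change (37 called) it was 65, 19, 16, 44, 17 and 0 in the same order of settings, and 0 to 23 with each array left out. The genes called higher made up 88.9% of the 406, against 84.6% with median centring and 84.9% with processed signals. Of 112 values of the single genes' differences under alternatives, 97 stayed within 1 SD, as did 109 of the Cy5 and 101 of the Cy3 changes. Some of these could not move. Dropping the filter left the values of all 8 genes as they were, and averaging probes left those of genes with a single probe. For Adgra3, Slf2 and Med14 averaging moved the difference by more than 1 SD. The 18 list genes followed kept their direction throughout but lost their call in 133 of 216 refits. Signal near background limits Castor1 and Slf2 in the untreated wild-type pool. No paired analysis was possible because the labels give no replicate numbers that pair untreated with polyI:C samples.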
